A study of Mus musculus with 14 samples.

Results

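The MS4A genes encode a family of small tetraspan membrane proteins whose members sit side by side on mouse chromosome 19. Different blood cell lineages use different members. Ms4a1 encodes CD20, the B cell surface protein, and Ms4a4b encodes a T cell protein known to associate with the receptor GITR, whereas Ms4a4a and Ms4a7 are known from macrophages. A set of 8 members was followed here by gene symbol through 2 tables of 24537 genes each, 1 for skin regulatory T (Treg) cells and 1 for hair follicle stem cells (HFSC). They were placed in classes by their known expression: Ms4a4a, Ms4a6c, Ms4a6d and Ms4a7 as myeloid genes, Ms4a4b and Ms4a6b as T cell genes, Ms4a1 as a B cell gene, and Ms4a4c, an interferon-responsive gene of monocytes and lymphocytes, on its own. The set was chosen with the difference between Treg GR KO and Treg GR WT libraries already known. That difference is therefore described for these genes without a test.

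The libraries came from 5 Treg GR KO and 3 Treg GR WT samples, sorted by flow cytometry from skin 1 day after hair depilation, and from 3 HFSC GR KO and 3 HFSC GR WT samples, sorted as CD34-positive, integrin alpha 6-high cells 4 days after depilation. Depilation, which all groups received, starts a new hair growth cycle. GR KO mice carried Foxp3YFP-Cre and GRfl/fl, so that the glucocorticoid receptor gene is deleted where Foxp3 is expressed. HFSC of these mice are thus not themselves targeted. GR WT mice are labelled wild type only. Whether they carried the Cre allele, their ages, and whether 1 library came from 1 mouse, the sources used here do not say. P-values then measure the spread between these libraries, which may be technical.

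Expression is given as TPM, a share of all transcripts that is scaled by transcript length. Treg libraries held 9.2 to 14.5 M tags (counted reads), and HFSC libraries held 4.5 to 8.0 M. Of nonzero counts per gene, 62.6% to 65.7% were even in Treg and 59.9% to 65.0% in HFSC libraries. Tags may thus come partly in pairs and not be independent. The targeted gene, Nr3c1, stood at 106 to 171 TPM in Treg GR KO and 171 to 233 TPM in Treg GR WT libraries, a log2 difference of -0.71 (SE 0.17, limma adjusted p = 0.0722), so its transcript was lower on average but did not pass the threshold of 0.05. The defining genes fitted the labels: Foxp3 averaged 171 ± 29.1 TPM in the GR KO libraries of Treg cells and 227 ± 61.9 TPM in the GR WT ones (SD, n = 5 and 3) and at most 0.357 TPM in HFSC, where Cd34 was at 109 to 225 TPM. Transcripts of other skin cells were also present in the Treg libraries, and the basal keratinocyte genes summed to 29.6 to 124 TPM in GR KO and 351 to 575 TPM in GR WT; their part in the differences below was not tested.

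The 8 genes span 354.2 kb of chromosome 19 (mm10, 11250603 to 11604804). Their order is Ms4a1, Ms4a7, Ms4a4a, Ms4a4c, Ms4a4b, Ms4a6c, Ms4a6b and Ms4a6d, with 5 on the plus strand and 3 (Ms4a1, Ms4a7 and Ms4a6d) on the minus strand. The T cell genes lie inside the myeloid block: Ms4a4b (11443558 to 11463548) stands between Ms4a4c (11407661 to 11427246) and Ms4a6c (11469368 to 11472736 in the Treg table). RefSeq promoter windows (build GRCm38.p6) were on hand for 6 of the 8 members. Their 250 bases before the gene start were aligned pair by pair, to see whether neighbours with different levels differ in this sequence. Of 20 window pairs, 18 aligned over at most 30 columns. The other 2 pairs each joined a T cell gene to a neighbour of lower level, with 114 identical bases of 128 aligned columns (89.1%) for Ms4a4b and Ms4a4c, and 152 of 182 (83.5%) for Ms4a6b and Ms4a6c.

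The aligned stretches are shown because they are similar in genes whose Treg levels differ many-fold. Those of Ms4a4b and Ms4a4c lie 131 to 5 and 128 to 1 bases before the start. The stretches of Ms4a6b and Ms4a6c lie at different distances, 248 to 71 and 175 to 2 bases before it. All are on the plus strand, 5′ to 3′. Capitals mark bases that are identical in the aligned partner and lower case marks mismatches or bases with no partner. The stretches are chr19:11443427-11443553 for Ms4a4b, chr19:11407533-11407660 for Ms4a4c, chr19:11518311-11518488 for Ms4a6b and chr19:11469193-11469366 for Ms4a6c.
Ms4a4b: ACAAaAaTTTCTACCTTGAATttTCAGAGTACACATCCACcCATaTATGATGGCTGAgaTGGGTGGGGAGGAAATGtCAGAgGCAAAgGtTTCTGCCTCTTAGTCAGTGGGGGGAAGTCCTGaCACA
Ms4a4c: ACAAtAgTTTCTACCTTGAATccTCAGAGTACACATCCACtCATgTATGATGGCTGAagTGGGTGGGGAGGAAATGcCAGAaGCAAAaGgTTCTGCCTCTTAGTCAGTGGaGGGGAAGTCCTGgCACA
Ms4a6b: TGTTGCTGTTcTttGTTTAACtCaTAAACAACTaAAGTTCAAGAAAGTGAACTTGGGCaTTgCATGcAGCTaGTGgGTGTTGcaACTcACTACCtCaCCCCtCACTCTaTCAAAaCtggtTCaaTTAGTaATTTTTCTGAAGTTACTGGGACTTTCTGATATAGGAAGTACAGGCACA
Ms4a6c: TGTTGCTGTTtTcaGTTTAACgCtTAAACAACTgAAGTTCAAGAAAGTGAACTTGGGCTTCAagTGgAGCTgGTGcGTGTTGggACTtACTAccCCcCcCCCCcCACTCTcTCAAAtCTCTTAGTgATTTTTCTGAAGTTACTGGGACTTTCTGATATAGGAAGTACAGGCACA
In the 250 bases before each start, 7 motifs were searched on both strands. The glucocorticoid receptor palindrome, an AGAACA element facing its inverse 3 bases away, was in none of the members' windows. These exact letters were held by 0.0% of 32851 promoter windows after rounding, so their absence here says nothing about the MS4A genes. The single AGAACA element, held by 16.1% of 32851 promoter windows, had 1 match in Ms4a6b and 1 in a window of Ms4a7. The RUNX core TGTGGT, held by 14.0% of windows, had 1 match in Ms4a4c, and the TATA box TATAAA, held by 12.4%, had 1 match in Ms4a4b. The letters GAGGAAG (10.6% of windows), searched for PU.1, the interferon-stimulated response element (3.0%) and the C/EBP palindrome TTGCNNAA (9.6%) had no match in the members' windows. That says only that these exact letters are not in them. The shorter GAGGAA is in the Ms4a4b and Ms4a4c stretches above.

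T cell members were abundant in both genotypes and differed little between them. Ms4a4b was at 462, 368, 365, 528 and 332 TPM in Treg GR KO replicates 1 to 5, against 413, 310 and 319 TPM in Treg GR WT replicates 1 to 3. The groups overlapped, with GR KO replicates 1 and 4 above every GR WT library and the other three GR KO libraries inside the GR WT range. The means were 411 ± 81.3 TPM in GR KO and 347 ± 57.1 TPM in GR WT (SD, n = 5 and 3), and the log2 difference on log2(TPM + 1) was 0.23 (SE 0.16). Ms4a4b ranked 177 to 295 among all genes in GR KO libraries and 246 to 305 in GR WT libraries, on 3505 to 7081 and 3035 to 4144 tags.

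Ms4a6b, the second T cell member, had 270.3, 176, 174, 251 and 185 TPM in Treg GR KO replicates 1 to 5, against 223, 179 and 188 TPM in Treg GR WT. The same GR KO libraries, 1 and 4, were highest, and the groups overlapped. The means of 211 ± 45.8 TPM in GR KO and 197 ± 23.2 TPM in GR WT differed by 0.08 on the log2 scale (SE 0.16). The ratio of Ms4a4b to Ms4a6b stayed narrow, at 1.71 to 2.11 in GR KO and 1.70 to 1.85 in GR WT libraries. Set against 12 T cell genes (Ctla4, Cd2, Cd3e, Cd4, Foxp3 and others), Ms4a4b and Ms4a6b together made 4.75 to 6.73 TPM per 100 TPM of that list in GR KO and 3.98 to 4.99 in GR WT, and these ranges overlapped too. The list summed to 9616 to 13030 TPM in GR KO and 11380 to 12760 TPM in GR WT. Its largest gene was Ctla4, at 3263 to 6442 and 5397 to 6383 TPM, so the ratio leans on that gene.

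**Figure D1:**
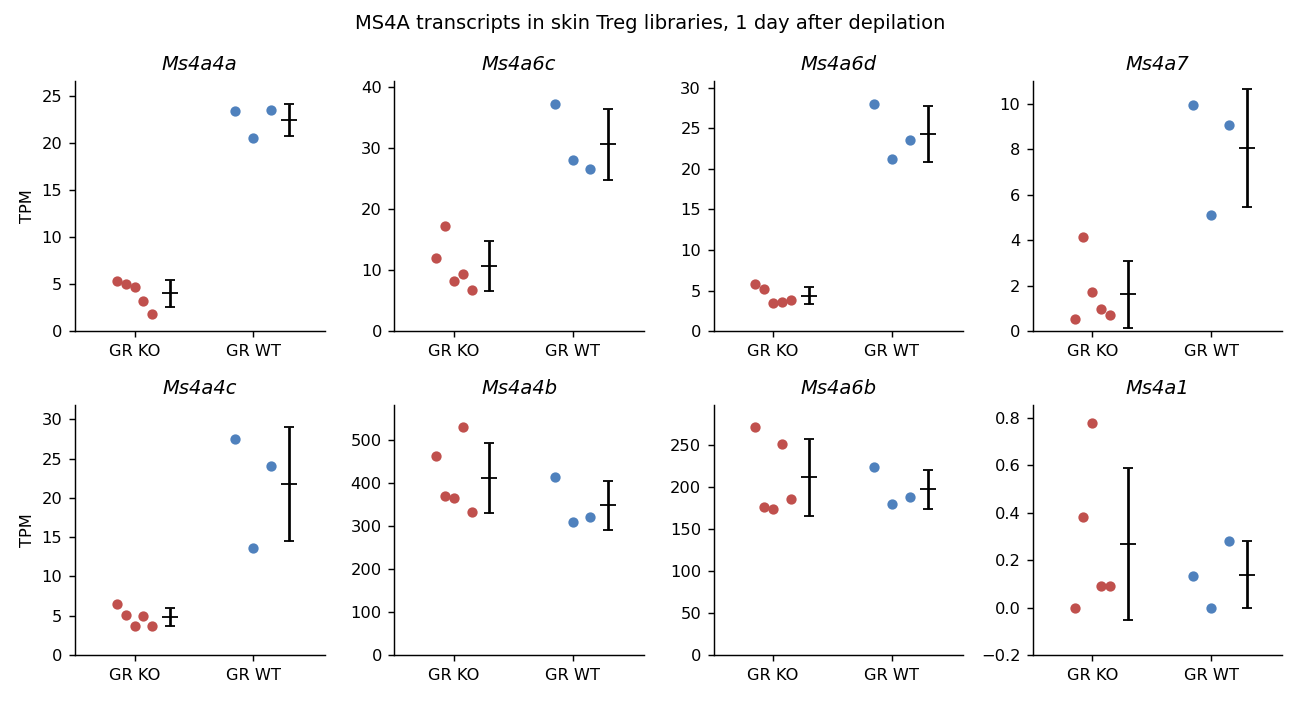
TPM of the 8 MS4A genes in each skin Treg library, GR KO (5 libraries) on the left and GR WT (3 libraries) on the right of each panel; points are libraries in replicate order, the dash and bar are the mean and SD, and each panel has its own scale. Ms4a4a, Ms4a6c, Ms4a6d, Ms4a7 and Ms4a4c lie lower in all GR KO libraries than in any GR WT library, while Ms4a4b, Ms4a6b and Ms4a1 overlap.

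Myeloid members were low in Treg libraries and lower in GR KO. Ms4a6d, a macrophage gene, was at 5.80, 5.20, 3.51, 3.56 and 3.85 TPM in Treg GR KO replicates 1 to 5, against 28.0, 21.2 and 23.6 TPM in GR WT. The highest GR KO library was at 0.273 of the lowest GR WT library. The GR KO mean of 4.38 ± 1.05 TPM was 18.1% of the GR WT mean of 24.3 ± 3.44 TPM (SD, n = 5 and 3), a log2 difference of -2.24 (SE 0.19). In bulk libraries such as these, fewer cells of a type and less RNA per cell cannot be told apart.

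Ms4a4a, whose protein partners the fungal receptor Dectin-1 on macrophages, was at 5.29, 5.05, 4.73, 3.21 and 1.87 TPM in GR KO, against 23.4, 20.5 and 23.5 TPM in GR WT. GR KO replicate 5 was lowest and the GR WT libraries lay close together. The GR KO mean of 4.03 ± 1.46 TPM was 17.9% of the GR WT mean of 22.5 ± 1.70 TPM, and the log2 difference was -2.28 (SE 0.26). These values rest on 20 to 43 tags per GR KO library and 159 to 241 per GR WT library.

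Ms4a6c, a gene of monocytes, was the most abundant myeloid member by TPM, at 12.0, 17.3, 8.24, 9.30 and 6.79 TPM in GR KO, against 37.3, 28.0 and 26.6 TPM in GR WT. GR KO replicate 2 was the highest of its group, at 0.65 of the lowest GR WT library. The GR KO mean was 35.0% of the GR WT mean (10.7 ± 4.12 and 30.6 ± 5.80 TPM, log2 difference -1.48, SE 0.25), the smallest relative gap of the 4 myeloid genes. The Treg table lists a transcript of 691 bases for Ms4a6c and the HFSC table one of 1834 bases. Its TPM in Treg libraries is scaled by the shorter, and its rank depends on that length. Summed over GR WT libraries it had 530 tags, against 838 for Ms4a6d and 568 for Ms4a4a. In GR KO it had 329 tags, against 270 and 176.

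Ms4a7, a marker of tissue macrophages, had the lowest level of the myeloid class, at 0.549, 4.15, 1.72, 0.982 and 0.694 TPM in GR KO, against 9.96, 5.09 and 9.06 TPM in GR WT. Replicate 2 stood highest in GR KO, at 0.816 of the lowest GR WT library, replicate 2. The counts behind these values were 6 to 42 tags in GR KO and 53 to 125 in GR WT, and the log2 difference was -1.89 (SE 0.39). Fold changes on log2(TPM + 1) understate changes of genes this low.

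Ms4a4c followed the myeloid class and not its neighbour Ms4a4b. It was at 6.52, 5.13, 3.72, 4.999 and 3.65 TPM in GR KO, against 27.6, 13.6 and 24.0 TPM in GR WT, and the groups did not overlap. The GR KO mean was 22.1% of the GR WT mean (4.80 ± 1.18 and 21.7 ± 7.26 TPM, log2 difference -1.94, SE 0.25). GR WT replicate 2 was the lowest of its group for Ms4a4c and for Ms4a6d, Ms4a4a and Ms4a7, and it also had the least macrophage signal of the 3 GR WT libraries.

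Ms4a1 was at the edge of detection. It was at 0, 0.384, 0.778, 0.091 and 0.09 TPM in GR KO and at 0.135, 0 and 0.282 TPM in GR WT, on 0 to 14 tags and 0 to 6 tags per library. For its transcript, 3 tags correspond to 0.135 to 0.202 TPM over these libraries, a floor that covers counting error only. That floor takes tags as independent and is higher if they come in pairs. It did not reach the mean of 1 TPM set for fitted genes. Of the other B cell genes, Pax5 was 0 in all GR KO libraries and at most 0.804 TPM in GR WT. Of 8 B cell genes only Cd79b was fitted, and it did not pass (log2 difference -0.03, SE 0.26, limma adjusted p = 0.972).

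Of the 7 fitted members, 5 had all GR KO libraries below all GR WT libraries, and 2 overlapped. Over all 11579 fitted genes, 5.1% had all GR KO libraries below and 3.42% had all above. Because the set was picked on this contrast, nothing follows from that count. The median log2 difference was -2.07 over the 4 myeloid genes and 0.16 over Ms4a4b and Ms4a6b, beside -0.04 over all fitted genes. The order of mean TPM in GR KO was Ms4a4b, Ms4a6b, Ms4a6c, Ms4a4c, Ms4a6d, Ms4a4a, Ms4a7 and Ms4a1. In GR WT it was Ms4a4b, Ms4a6b, Ms4a6c, Ms4a6d, Ms4a4a, Ms4a4c, Ms4a7 and Ms4a1. The place of Ms4a6c depends on the short transcript that scales its TPM. Among Ms4a6d, Ms4a4a and Ms4a4c neighbouring means differed by less than the larger of their SDs in both genotypes, while Ms4a4b was above Ms4a6b in each library. The 4 myeloid genes made 2.12% to 5.44% of all MS4A TPM in GR KO libraries and 12.9% to 13.4% in GR WT libraries, and the summed MS4A level was 650 ± 124 and 653 ± 98.5 TPM.

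**Figure D2:**
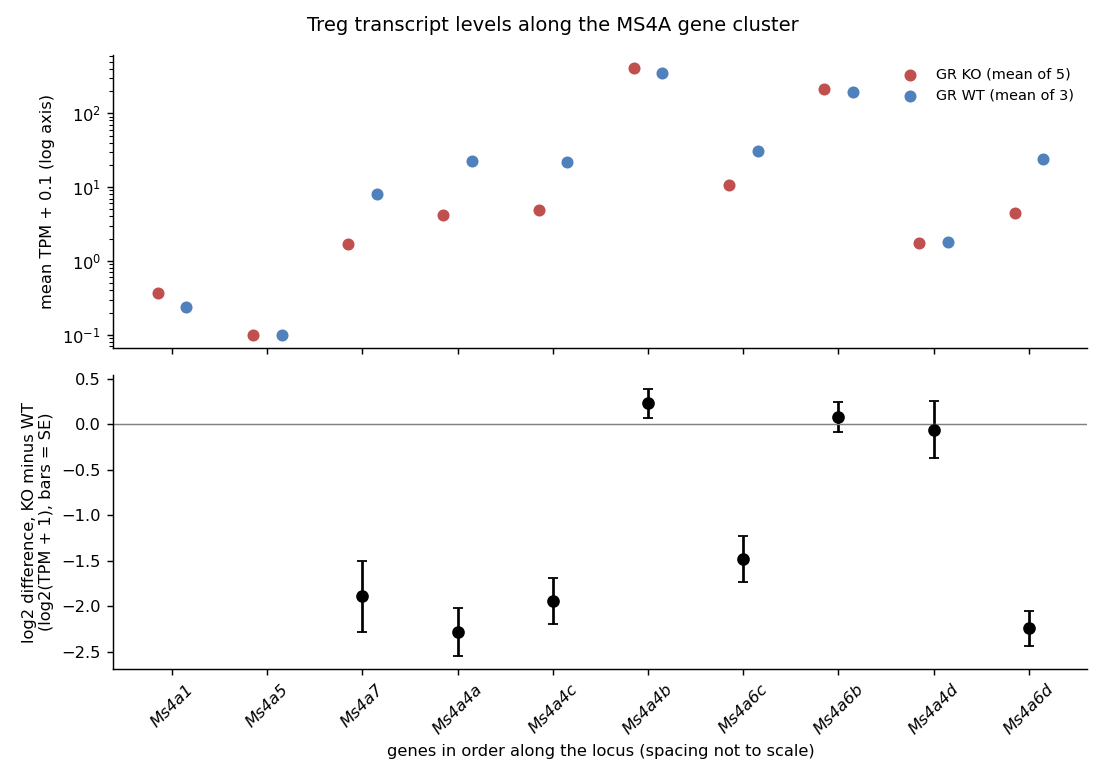
Treg levels of the MS4A genes in their order along chromosome 19, with mean TPM per genotype on a log axis above (GR KO left of GR WT for each gene) and the log2 difference, GR KO minus GR WT, with its SE below. Levels are plotted as mean TPM + 0.1. Ms4a4b and Ms4a6b, at 0.23 and 0.08, and Ms4a4d, at -0.06, lie among family genes at -1.48 to -2.28; genes with a mean under 1 TPM have no difference plotted.

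Near-identical copies can share reads, so the transcripts of the members (GENCODE M21, protein-coding) were compared by their 50-base stretches. Ms4a6c shared 6.08% of its stretches with the far more abundant Ms4a6b, Ms4a6d shared 2.69% with Ms4a6b, and Ms4a4c shared 7.67% with Ms4a4b. These shares are over all protein-coding transcripts of a gene, with 1792 stretches for Ms4a6c. Its Treg row is a transcript of 691 bases, where the share may be larger or smaller. No source used here says how the authors' counting treated such reads, so these 3 low levels are uncertain. The share is of the low gene's own stretches, and since its partner is many times more abundant, reads from the shared stretches could amount to as much as the low level itself in GR KO libraries. Ms4a4a and Ms4a7 had no stretch of even 25 bases in common with another member, and their GR KO means were 17.9% and 20.1% of the GR WT means.

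Macrophage and monocyte genes moved with the myeloid members. Of 16 such genes 15 were fitted, and 6 were lower in GR KO by limma at an adjusted p under 0.05 while none was higher, against 1.31% and 0.199% of all fitted genes (1.51% in either direction). This list was also chosen with earlier results of these data known, so the count is a description. Chil3, a chitinase-like gene of monocytes and activated macrophages, fell to 0.790 ± 0.748 TPM in GR KO, against 11.6 ± 3.31 TPM in GR WT (log2 -2.90, SE 0.38, limma adjusted p = 0.00326). Cd14, the lipopolysaccharide co-receptor gene, fell to 10.4 ± 4.99 against 37.2 ± 9.49 TPM (log2 -1.82, limma adjusted p = 0.0133). Mrc1, the mannose receptor gene, and Itgam, the integrin alpha M gene, had log2 differences of -1.35 and -1.64 (limma adjusted p = 0.0146 and 0.0164). The median of the list was -1.35, and 10 of its 15 fitted genes had all GR KO libraries below all GR WT libraries, against 5.1% of all fitted genes. Without GR WT replicate 1 or without GR WT replicate 3, 1 gene of the list passed, and 3 passed with the replicate number as a block or with a filter at 5 TPM.

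The list's summed level, 763 to 1138 TPM in GR KO and 898 to 1128 TPM in GR WT, was mostly Ccr2, a chemokine receptor gene at 642 to 1026 TPM in GR KO and 651 to 729 TPM in GR WT that did not pass (log2 0.20, limma adjusted p = 0.568). Without Ccr2, a choice made after its values were seen, the sums were 112, 92.2, 121, 70.7 and 185 TPM in GR KO replicates 1 to 5, against 399, 247 and 428 TPM in GR WT. Per 100 TPM of these 15 macrophage and monocyte genes, the 4 myeloid MS4A genes made 21.0, 34.3, 15.1, 24.1 and 7.14 TPM in GR KO, against 24.8, 30.3 and 19.3 TPM in GR WT. GR KO replicates 1 and 4 lay inside the GR WT range, replicate 2 above it and replicates 3 and 5 below it. The largest of these 15 genes was Lyz2, at 31.5 to 108 TPM in GR KO and 127 to 215 TPM in GR WT, so the ratio leans on that gene. The mean log2 difference of this ratio was -0.44, whereas it was -1.90 with Ccr2 in the list. The value of -0.44 leans on GR KO replicate 5, whose ratio of 7.14 was the lowest. The part of the other cells in the lower myeloid MS4A levels was not tested beyond these values.

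**Figure D3:**
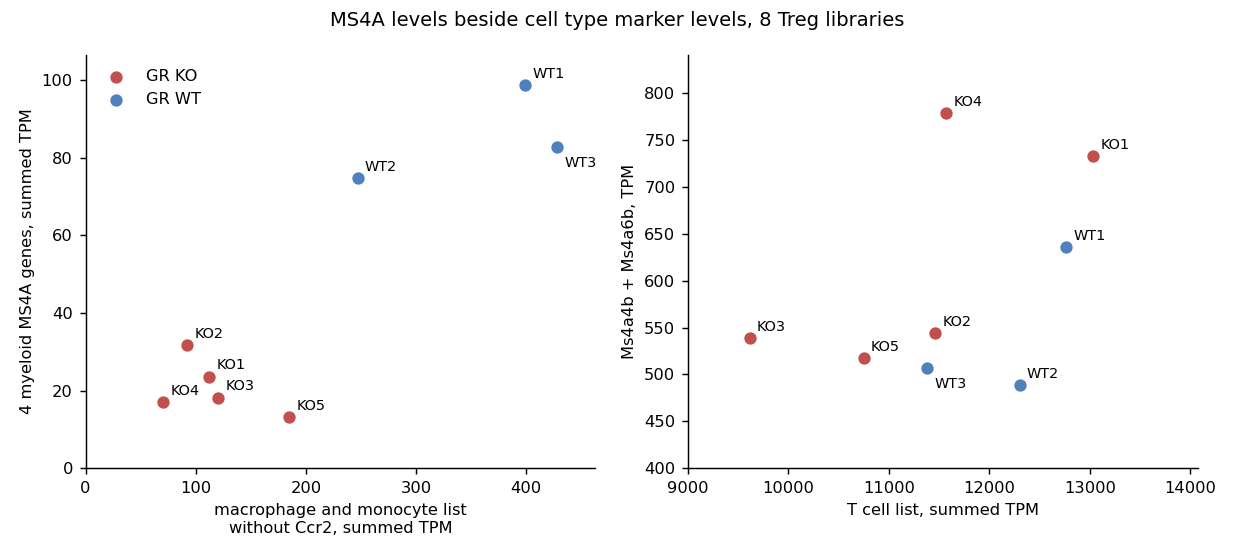
Left, summed TPM of Ms4a4a, Ms4a6c, Ms4a6d and Ms4a7 against the summed TPM of 15 macrophage and monocyte genes (without Ccr2) in each Treg library; right, Ms4a4b plus Ms4a6b against 12 T cell genes, on axes that do not start at 0. GR KO libraries lie at 13.2 to 31.7 TPM on the left vertical axis and GR WT libraries at 74.9 to 98.7 TPM, while on the right the genotypes overlap. Lyz2 is the largest of the 15 macrophage and monocyte genes in each library.

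GR KO replicate 5 combined the highest macrophage signal of its group (without Ccr2) with the lowest myeloid MS4A level. Its complement genes C1qa, C1qb and C1qc, markers of resident macrophages named here after their values were seen, summed to 41.5 TPM, against 5.48 to 23.8 TPM in the other GR KO libraries and 21.0 to 64.1 TPM in GR WT. Its Lyz2, a lysozyme gene of myeloid cells, was at 108 TPM, the highest of GR KO and below the GR WT libraries at 127 to 215 TPM. Its 4 myeloid MS4A genes summed to 13.2 TPM, against 74.9 to 98.7 TPM in GR WT. Its Ly6c2, a gene of inflammatory monocytes, was at 1.16 TPM, the lowest of all Treg libraries, where the other GR KO libraries were at 4.69 to 24.9 TPM and GR WT at 17.3 to 40.2 TPM. The myeloid MS4A sum was 0.318 times the C1q sum in this library, 0.763 to 4.31 times in the other GR KO libraries and 1.29 to 3.56 times in GR WT.

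Among partner genes of MS4A proteins, adaptor genes of myeloid cells fell. Of 10 listed genes 8 were fitted, and 2 fell in GR KO, against 1.31% of all fitted genes called lower. Tyrobp, which encodes the adaptor DAP12, fell to 18.2 ± 5.69 TPM in GR KO, against 48.4 ± 11.49 TPM in GR WT (log2 -1.39, SE 0.26, limma adjusted p = 0.0211). Fcer1g, the Fc receptor gamma chain gene, fell to 19.3 ± 7.39 against 65.3 ± 29.0 TPM (log2 -1.67, SE 0.34, limma adjusted p = 0.0371). Clec7a, the gene of Dectin-1, was at 2.41 ± 2.33 and 13.9 ± 7.99 TPM and did not pass (log2 -2.17, SE 0.52, limma adjusted p = 0.0801). Both calls were lost without GR KO replicate 2, without GR WT replicate 1, without GR WT replicate 3 and with no filter on low values.

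Partner genes that were abundant in the Treg libraries did not pass. Tnfrsf18, which encodes GITR, the receptor that the Ms4a4b protein associates with, was at 1509 ± 198 TPM in GR KO and 1600 ± 127 TPM in GR WT (log2 -0.09, SE 0.12, limma adjusted p = 0.786). Cd53, a leukocyte tetraspanin gene, was at 843 ± 64.9 and 705 ± 95.7 TPM (log2 0.26, limma adjusted p = 0.308), with all GR KO libraries above all GR WT libraries. The tetraspanin genes Cd81 and Cd82 had log2 differences of 0.27 and 0.15 (limma adjusted p = 0.506 and 0.441). The costimulatory receptor gene Cd40, another listed partner, was low, at 0.833 ± 0.603 TPM in GR KO and 1.63 ± 0.854 TPM in GR WT. It did not pass either (log2 -0.54, limma adjusted p = 0.551).

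Of the other genes of the family, most were at 0, and the MS4A-like Tmem176a and Tmem176b were the most abundant. Of 14 listed MS4A and MS4A-like genes 11 had a row, 6 of these were at 0 in every Treg library, and 3 were fitted, with 0 past the threshold, 0 at an unadjusted p under 0.05 (14.1% of all fitted genes) and 0 by voom on tags. Without GR WT replicate 2, 1 of the 3 passed as lower in GR KO. Ms4a4d, the neighbour of Ms4a6b, was at 1.67 ± 0.715 TPM in GR KO and 1.69 ± 0.258 TPM in GR WT (log2 -0.06, SE 0.31, limma adjusted p = 0.956). Tmem176a and Tmem176b, MS4A-like genes known from dendritic cells and some T cells, were at 22.9 ± 6.33 and 33.4 ± 6.14 TPM in GR KO and 25.5 ± 6.32 and 48.9 ± 21.2 TPM in GR WT (limma adjusted p = 0.799 and 0.494). Ms4a2, which encodes the beta chain of the mast cell IgE receptor, had no tags in the Treg libraries.

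The other lists gave the surroundings of both classes. They too were chosen with earlier results of these data known. Beside their counts, 1.31% of all fitted genes were called lower in GR KO. All GR KO libraries lay below all GR WT libraries in 5.1%. Of 12 T cell genes 1 fell, Il2ra, which encodes the interleukin 2 receptor alpha chain (limma adjusted p = 0.00576), and the list's median was 0.06. Of 8 genes of resting or recirculating T cells 1 fell, Il7r (log2 -1.06, limma adjusted p = 0.00214), with a median of -0.55 and 4 genes lower in all GR KO libraries. Of 11 fitted interferon response genes 1 fell, Oasl2 (log2 -1.69, limma adjusted p = 0.0196), with a median of -0.99 beside -1.94 for Ms4a4c, while no gene of the list passed without GR WT replicate 1, without GR WT replicate 3, with a replicate block or with a filter at 5 TPM, and 5 passed by voom. Basal keratinocyte genes fell in 6 of 7 fitted (median -3.35) and neutrophil genes in 2 of 3. The keratinocyte count was 3 without GR KO replicate 5, without GR WT replicate 1 or with a robust prior, and 1 without GR WT replicate 3 or with a replicate block. The neutrophil count was 1 with no filter and 0 without GR WT replicate 1, without GR WT replicate 3, with a robust prior or with a pseudocount of 0.1. No dendritic and Langerhans cell gene passed of 3 fitted (median -0.19, 1 at an unadjusted p under 0.05, 0 by voom), and no mast cell gene of 2 (1 unadjusted, 1 by voom).

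Genes whose profile over the 8 Treg libraries lay closest to the myeloid members were found by the root mean square difference of centred log2(TPM + 1) values, over 8128 named genes averaging 5 TPM or more. Nearest was Lilr4b, an immunoglobulin-like receptor gene of myeloid cells, at a difference of 0.241, with 7.46 ± 2.61 TPM in GR KO and 33.9 ± 9.42 TPM in GR WT. Ms4a4c came next at 0.295, then Mgst1, a microsomal glutathione transferase gene (0.343), Plek, the pleckstrin gene (0.351), and Acod1, which encodes the itaconate-forming enzyme of activated macrophages (0.383). The median over all genes compared was 1.02, and Ms4a4b and Ms4a6b were at 1.12 and 1.07. Because the members were chosen with the contrast of genotypes known, their profile carries that step. Genes nearest to it share the step by the way they were found.

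Ms4a6b was the third nearest gene to Ms4a4b, at 0.13, after Ube2w, a ubiquitin-conjugating enzyme gene, and Gpr171, a receptor gene of T cells, both at 0.115, and before Lztfl1 and Atg5 at 0.134. The median over all genes compared was 0.347 for Ms4a4b and 0.337 for Ms4a6b. Nearest to Ms4a6b was Ccr2 at 0.088, with 805 ± 159 TPM in GR KO and 691 ± 39.2 TPM in GR WT, followed by Ifi209 (0.114), Tubgcp5 (0.119), Lsm8 (0.12) and Sat1 (0.122). Ms4a4b ranked 14 of 8130 genes by nearness to Ms4a6b, at the same difference of 0.13.

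**Figure D4:**
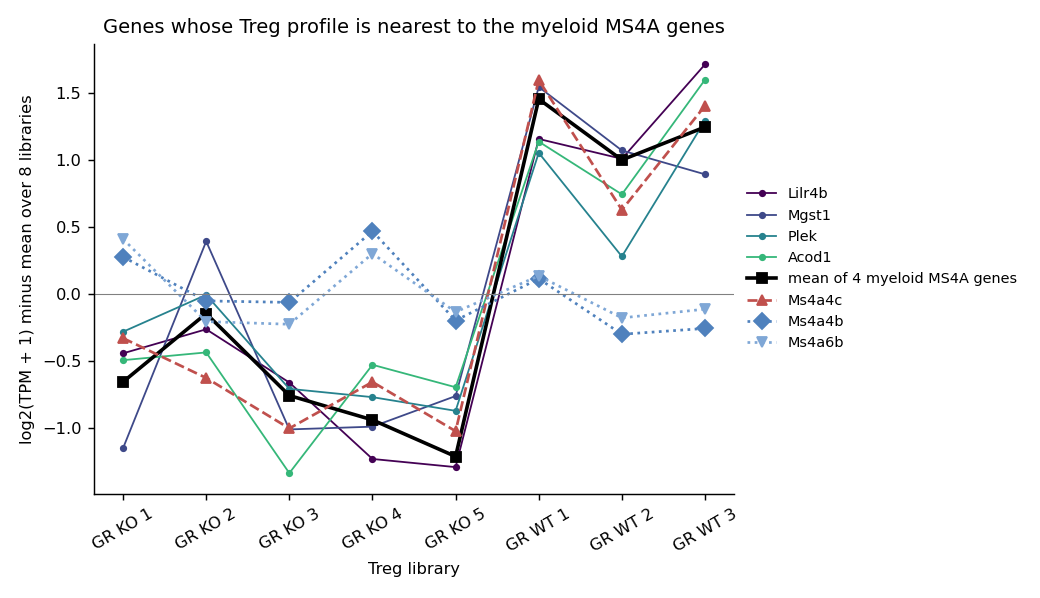
Centred log2(TPM + 1) of the 4 myeloid MS4A genes (mean, black), Ms4a4c, Ms4a4b, Ms4a6b and the genes nearest to the myeloid mean in the 8 Treg libraries, GR KO on the left. The myeloid mean, Ms4a4c and the nearest genes are higher in the 3 GR WT libraries, while Ms4a4b and Ms4a6b show no such step. The members were chosen with this contrast known and the nearest genes by closeness to the myeloid mean, so their step follows from the choice.

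HFSC libraries showed almost no transcript of the 8 members. Outside the set, the family gene Ms4a10 ranged from 0 to 2.27 TPM over the HFSC libraries. Of 48 values (8 genes in 6 libraries) 3 were above 0, each from 2 tags. They were Ms4a4c at 0.401 TPM in GR WT replicate 1 and Ms4a4b at 0.407 and Ms4a6b at 0.303 TPM in GR WT replicate 2. The other five genes were at 0 in all HFSC GR KO and GR WT libraries. A count of 0 allows up to 0.301 to 1.04 TPM there (3 tags), depending on the gene and library, so lower levels were not detectable at this depth. That limit takes tags as independent and is higher if they come in pairs. No member reached the mean of 1 TPM, so none was tested between HFSC GR KO and GR WT, where limma called 0.176% of 12493 genes. Tmem176b, by contrast, was at 50.4 ± 7.01 TPM in GR KO and 53.1 ± 5.12 TPM in GR WT (SD, n = 3 each, log2 -0.08, SE 0.14, limma adjusted p = 0.81), and Tmem176a at 11.2 ± 1.93 and 10.8 ± 3.72 TPM (limma adjusted p = 0.888). The monocyte genes Ly6c2 and Chil3 were at 0 in each HFSC library.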

How the data were processed

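Libraries of 14 sorted mouse samples were made with a stranded kit, per the labels' protocols. Tools listed in the submitters' processing notes are FastQC, Trim Galore, STAR, HOMER, with build mm10. No source used here gives versions, settings or use of strand. The authors deposited TPM per sample with 1 RefSeq transcript and its length per gene symbol, in 1 table per cell type, per the file headers. The HFSC columns have an unexplained prefix, and genotype and number were used to match them within their table.

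Multiplied by length, 100% of the low TPM values tested came out whole (within 0.1 tag) at 1 step size for each library, and this gave the tag counts used for depth. Within a table, limma 3.58.1 (R 4.3.3) was run with a trended prior on log2(TPM + 1) of genes averaging 1 TPM or more, with two-sided Benjamini-Hochberg adjusted p at 0.05 over all genes fitted. The fit was tested on simulated data. Levels set across tables are descriptive. Promoter windows were aligned with Biopython 1.88.

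The members, gene lists and tests were chosen with earlier results of these data known. Named genes are the 8 members, up to 4 genes per list with the smallest p, fitted partner and family genes, and the 5 nearest profiles per class, with Nr3c1. Outside this rule, Ctla4, Pax5, C1qa, C1qb, C1qc, Lyz2, Ly6c2, Ms4a2 and Ms4a10 were picked after their values were seen. Foxp3 and Cd34 fall under the rule, but their use as a check of the labels was also chosen after their values were seen. Alternatives covered pseudocount, filter, prior, scaling, voom on tags, a replicate block and each library left out. Same-numbered GR KO and GR WT libraries did not deviate together (correlations -0.12 to 0.17 in Treg and -0.04 to 0.06 in HFSC), so the numbers were not treated as pairs.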

Additional observations from a re-analysis of the deposited data

Results flagged for a closer look

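Of 69 genes checked for a library far from the rest of the 5 Treg GR KO libraries, 4 had one, and chance flags about 1 in 20 groups. Itgam was at 2.10 TPM in GR KO replicate 5 and at 0.734 to 0.942 TPM in the other GR KO libraries. Krt15 was at 20.2 TPM in GR KO replicate 3 and 1.38 to 4.85 TPM in the others. Cd53 was at 954 TPM in GR KO replicate 1 and 783 to 831 TPM in the others. Mgst1, among the nearest profiles to the myeloid MS4A genes, was at 21.6 TPM in GR KO replicate 2 and 6.74 to 9.14 TPM in the others. No MS4A gene was flagged in this way.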

How the results depend on the processing

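The myeloid MS4A median of -2.07 was -2.50 with a pseudocount of 0.1 and -1.41 with a pseudocount of 5. It ranged from -2.24 to -1.93 with 1 library left out, was -2.03 with median ratio scaling and -1.81 with a replicate block. The T cell MS4A median of 0.16 ranged from 0.076 to 0.27 over all its alternatives (the same range with 1 library left out). Ms4a6b, at 0.08, lay between -0.014 and 0.175 in these settings. Genes called in Treg numbered 175, and 78 with a replicate block, an alternative whose numbers were not shown to pair the samples. They ranged from 84 to 186 with 1 library left out, 107 without GR WT replicate 1 and 84 without GR WT replicate 3. Genes called in HFSC numbered 22, and 2 with no filter, 48 with a filter at 5 TPM, 51 with a robust prior, 69 with median ratio scaling, 483 with voom, 66 with a replicate block, and 0 to 5 with 1 library left out. The cause was not tested. Ccr2 decided the ratio of myeloid MS4A to macrophage genes, at -1.90 with it and -0.44 without it, an alternative chosen after seeing the data. Depth limits Ms4a1 and Ms4a7 in Treg and the whole set in HFSC.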
